A study of Saccharomyces cerevisiae with 4 samples.

Results

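Ribosome footprints of a wild-type yeast library labelled as carrying a TIF4631 plasmid were set against those of the wild-type library with the ccdB control plasmid. Open reading frames (ORFs) with at least 200 reads summed over the 4 libraries of the series were kept, which left 4997 of the 5441 ORFs listed. The comparison uses 2 of the 4 libraries, 1 on each side, so it describes 2 libraries with their counting error and has no replicate check and no test. The strain is Y7092, a haploid laboratory strain of Saccharomyces cerevisiae. The first library is labelled wild type for VPS35 with pAG416GAL-TIF4631, a URA3 plasmid that places TIF4631 under the galactose-inducible GAL promoter. The second is labelled wild type for VPS35 with pAG416GAL-ccdB, the same kind of plasmid with the bacterial ccdB cassette in place of a yeast gene. The other 2 libraries carry the same plasmids in a strain in which natMX replaces VPS35, the vps35 deletion, and are given here only for their levels, as the deletion library with TIF4631 and the deletion control. All 4 cultures grew in synthetic defined medium to early log phase, with 2 h of induction before harvest.

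TIF4631 encodes eIF4G1, the scaffold that joins the cap-binding protein eIF4E and the poly(A)-binding protein to recruit ribosomes to an mRNA. Ribosome profiling counts the mRNA fragments that translating ribosomes protect from nuclease, so a footprint level holds the amount of an mRNA and its translation together. Yeast adjusts the synthesis of transporters and biosynthetic enzymes to the supply of biotin, inositol, zinc, phosphate and nitrogen through dedicated regulators, namely Vhr1, the pair Ino2 and Ino4, Zap1, Pho4 and the GATA factors. Genes for making ribosomes and genes for stress protection, of which Msn2 and Msn4 activate many, are known to move in opposite directions when growth slows.

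TIF4631 itself was not higher in the library labelled with it. YGR162W, the TIF4631 ORF on chromosome VII (824059 to 826917, sacCer3), had 7067 reads in the wild-type library labelled TIF4631 and 8010 in the wild-type ccdB control. It had 103723 reads in the deletion library with TIF4631 and 4948 in the deletion control. After scaling these were 403 counts per 1000000 scaled reads (CPM) in the wild-type library labelled TIF4631 and 455 in its control, against 6217 and 435 CPM in the deletion pair. The log2 ratio in the wild-type pair was -0.17 (95% counting interval -0.22 to -0.13), which is below 0 and small. The data therefore go against the label of this library, and it is called below the library labelled TIF4631, with no claim that its cells made more eIF4G1. Its other labels were met by their genes. VPS35 had 1974 reads in the library labelled TIF4631 and 2187 in the control, against 10 and 9 in the deletion pair. URA3, the plasmid marker, was at 884 CPM in the library labelled TIF4631 and 855 CPM in the control, and at 118 CPM in the deletion library with TIF4631 and 732 CPM in the deletion control. GAL1, the galactokinase gene whose promoter drives these plasmids, took the largest share of reads among the ORFs listed in both wild-type libraries. The share was 3.02% in the library labelled TIF4631 and 2.76% in the control. Other kept genes of the cap-binding machinery lay close to TIF4631. TIF4632, for the second eIF4G, had a log2 ratio of -0.07, CDC33, for eIF4E, -0.16 and PAB1, for the poly(A)-binding protein, -0.21. TIF1 and TIF2, for eIF4A, were not among the kept ORFs.

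Libraries held between 11240681 and 18067205 reads in ORFs. The pair compared here had 18067205 in the library labelled TIF4631 and 17669055 in the control. The median kept ORF had 974 and 972 reads in these 2 libraries, and a count of 0 allows up to 0.171 and 0.170 CPM. LEU2 and MET17, auxotrophic markers, were listed at 0 reads in all 4 libraries. HIS3, on the same marker list, was not silent. It had 72.8 CPM in the library labelled TIF4631 and 65.1 in the control, and 111 and 65.7 in the deletion pair. In the 2 wild-type libraries CAN1 had 0 reads, and LYP1 had 13 in the library labelled TIF4631 and 15 in the control. The alpha-specific STE3, for the a-factor receptor, had 377 CPM in the library labelled TIF4631 and 402 CPM in the control. The a-specific MFA1, MFA2, STE2, STE6 and BAR1 had 0 to 55 reads in the 2 wild-type libraries. Several PCR reads can stem from 1 molecule and no molecular identifiers were counted, so the intervals and floors cover counting error only, and nothing in the labels says whether separate cultures were used. The lysates are of whole cultures, so more cells that use a gene and more footprints per cell cannot be told apart.

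The 2 wild-type libraries were alike over most of the genome. The median log2 ratio was 0.00, 78.4% of kept ORFs lay within 0.25 of 0 and 95.9% within 0.5. The rule of size used here asks for a change of 2-fold or more, which is 1 on the log2 scale, and for a 95% counting interval that does not hold 0. By this rule 23 ORFs (0.46% of 4997) were higher in the library labelled TIF4631 and 5 (0.1%) were lower. The counting interval alone left out 0 for many more, 1199 ORFs above 0 (24%) and 1177 below 0 (23.6%). With scaling by total counts that split was 930 above and 1525 below. Replicates would be needed to say how much of this spread recurs. Counting error alone would give the median ORF an SD of 0.0657, and the robust SD observed was 0.185. It was 0.243 over the 1000 ORFs with the lowest levels and between 0.155 and 0.199 in the 4 higher classes of like size. The median for each nuclear chromosome lay between -0.03 and 0.02.

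**Figure D1:**
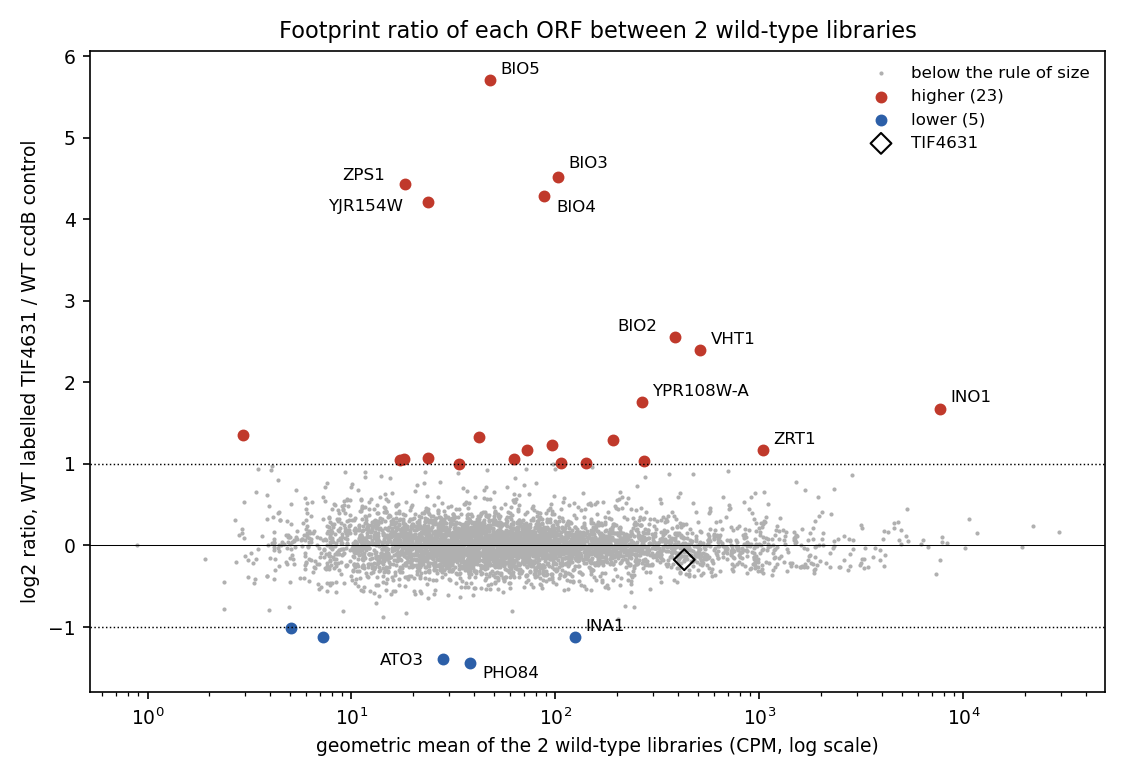
Log2 ratio of the library labelled TIF4631 over the wild-type ccdB control (vertical axis) against the geometric mean of the 2 libraries in CPM (horizontal axis, log scale) for 4997 ORFs. Red points are the 23 ORFs higher and blue points the 5 lower by the rule of size (dotted lines at 1 and -1), and the open diamond is TIF4631 at -0.17; BIO5 stands highest at 5.71.

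The biotin genes stood farthest apart. BIO2, BIO3, BIO4 and BIO5, which serve to make biotin from its precursors, and the biotin transporter gene VHT1 were higher by the rule of size. These are 5 of the 6 genes on the biotin list, against 0.46% of all ORFs. The list was chosen with earlier results of these data known. The regulator gene VHR1 had a log2 ratio of -0.04 (interval -0.20 to 0.11). BIO5 encodes the carrier that takes up the precursor 7-keto 8-aminopelargonic acid. It had 346 CPM in the library labelled TIF4631, 6.58 in the wild-type control, 1.14 in the deletion library with TIF4631 and 6.15 in the deletion control. Its log2 ratio in the wild-type pair was 5.71 (5.45 to 5.99), or 52.3-fold, and no ORF among those kept had a larger one. BIO3, for the aminotransferase that follows in the pathway, had 494, 21.5, 3.06 and 19.4 CPM in the same order of libraries, a log2 ratio of 4.52 (4.37 to 4.67). BIO4, for dethiobiotin synthetase, had 388 CPM against 19.8 in the wild-type pair and 6.23 against 21.9 in the deletion pair, and its wild-type log2 ratio was 4.29 (4.14 to 4.45). The 2 control libraries were close to each other for these 3 genes, the library labelled TIF4631 was far above them and the deletion library with TIF4631 was below them. BIO2, for biotin synthase, had 938 CPM in the library labelled TIF4631 and 160.0 in the control, with 31.2 and 193 in the deletion pair, and a wild-type log2 ratio of 2.55 (2.49 to 2.61). VHT1, for the high-affinity transporter, had 1172 CPM against 223 and, in the deletion pair, 65.4 against 226, with a wild-type log2 ratio of 2.39 (2.34 to 2.44). Together the 5 genes took 0.324% of all reads in the library labelled TIF4631 and 0.0430% in the control (Clopper-Pearson 95% intervals 0.321 to 0.327% and 0.0421 to 0.0440%), against 0.0109% and 0.0472% in the deletion pair.

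BIO3, BIO4 and BIO5 are neighbours on chromosome XIV. BIO5 (731618 to 733303) lies 52 bases from BIO4 (733356 to 734069) on the same strand, and BIO4 and BIO3 (734291 to 735733) are transcribed away from each other across a gap of 221 bases, so their values do not come from separate loci. VHT1 (618077 to 619858) and BIO2 (1063813 to 1064940) are far apart on chromosome VII. The genes next to VHT1 and BIO2 did not share their ratios: SPT4 had -0.38 and ZUO1 -0.14. In yeast the vitamin H response element, to which Vhr1 binds, reads AATCA, any 8 bases, then TGACT or TGATT. It was looked for on both strands in the 300 bases before each start codon, where 13 of 4987 windows (0.261%) hold it, among them those of BIO5 and VHT1. The upstream sequences of the biotin genes are shown because these genes had the largest ratios, with the element in capitals where it is found. They are RefSeq sequence of the R64 genome (sacCer3), on the strand of the gene, and leave out the 100 bases next to the start codon, or 50 bases at each end between BIO4 and BIO3. BIO5 is at chrXIV:733404-733603 (minus strand), VHT1 at chrVII:619959-620158 (minus strand), BIO2 at chrVII:1065041-1065240 (minus strand) and the stretch between BIO4 and BIO3 at chrXIV:734120-734240 (plus strand).
BIO5: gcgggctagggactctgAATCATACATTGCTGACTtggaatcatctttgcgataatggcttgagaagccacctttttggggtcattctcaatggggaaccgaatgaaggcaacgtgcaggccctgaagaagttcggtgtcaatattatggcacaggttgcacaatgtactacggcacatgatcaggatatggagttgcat
VHT1: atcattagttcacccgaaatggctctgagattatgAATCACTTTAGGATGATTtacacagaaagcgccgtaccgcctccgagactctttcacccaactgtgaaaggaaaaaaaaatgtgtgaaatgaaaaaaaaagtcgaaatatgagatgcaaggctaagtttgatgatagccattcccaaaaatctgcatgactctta
BIO2: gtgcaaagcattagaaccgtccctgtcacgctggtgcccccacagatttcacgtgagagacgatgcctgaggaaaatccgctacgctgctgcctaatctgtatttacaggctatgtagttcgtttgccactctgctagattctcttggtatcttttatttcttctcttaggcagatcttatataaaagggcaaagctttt
BIO3: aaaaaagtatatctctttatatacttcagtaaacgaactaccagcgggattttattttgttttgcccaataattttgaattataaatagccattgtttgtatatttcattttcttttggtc
The BIO5 match begins 283 bases before the start codon and lies within the coding sequence of BIO4. The VHT1 match begins 265 bases before its start codon. The other 11 ORFs with a match had log2 ratios from -0.23 (RPO26) to 0.37 (DMA2), so a match was not accompanied by a large ratio elsewhere.

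YJR154W, an ORF of unknown function on chromosome X, had levels ordered like those of BIO3 to BIO5. It had 102 CPM in the library labelled TIF4631 and 5.51 in the control, and 1.62 and 6.77 in the deletion pair, with a wild-type log2 ratio of 4.21 (3.92 to 4.52). The kept genes of enzymes that use biotin had log2 ratios between -0.07 and 0.35. ACC1, for acetyl-CoA carboxylase, had 4325 CPM against 3827 (0.18), BPL1, for the ligase that attaches biotin, 117 against 92.1 (0.35), and ARC1, a biotin-carrying cofactor of tRNA synthetases, 708 against 742 (-0.07). The 4 kept genes of this group, of 6 on its list, had a median log2 ratio of 0.14, none of them past the rule of size. Beyond counting error 2 were above 0 and 1 below, against 24% and 23.6% of all ORFs.

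**Figure D2:**
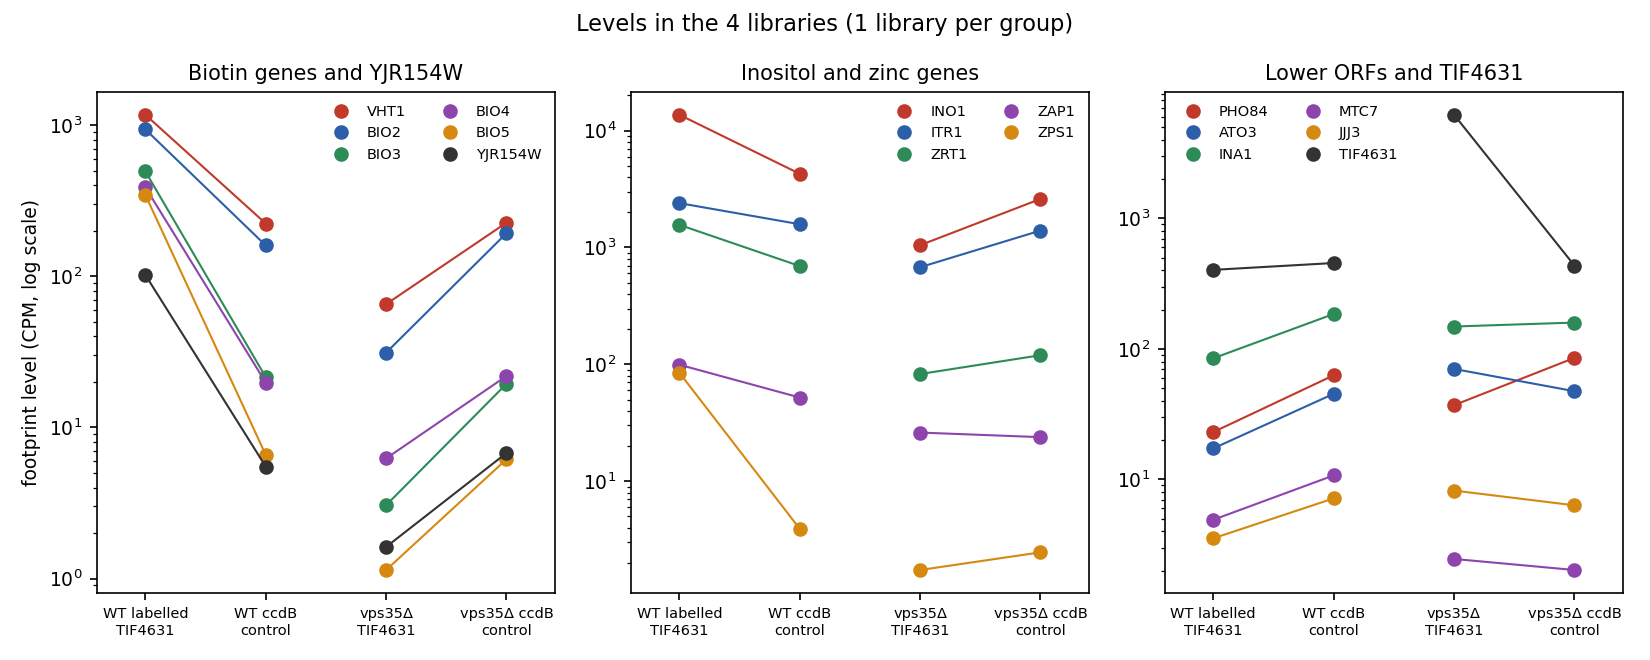
Footprint level in CPM (log scale) of single ORFs in the 4 libraries, 1 point per ORF and library, with lines joining the 2 libraries of each strain. BIO3, BIO4 and BIO5 run from 346 to 494 CPM in the library labelled TIF4631 and from 6.58 to 21.5 CPM in the wild-type control, and are lowest in the deletion library with TIF4631, where TIF4631 itself is at 6217 CPM.

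INO1, for inositol-3-phosphate synthase, the enzyme that makes inositol from glucose 6-phosphate, had the largest gain in reads of any kept ORF. It had 13667 CPM in the library labelled TIF4631 and 4272 in the wild-type control, with 1046 in the deletion library with TIF4631 and 2602 in the deletion control. The wild-type log2 ratio was 1.68 (1.67 to 1.69), 3.20-fold, and INO1 took 1.33% of all reads in the library labelled TIF4631 and 0.426% in the control. Per length, by the deposited RPKM values, INO1 ranked 9 among the 4997 kept ORFs in the library labelled TIF4631 and 84 in the control. Genes that are not among the ORFs listed have no rank. INO1 (134332 to 135933 on chromosome X) lies 396 bases from VPS35, whose log2 ratio was -0.14 in the wild-type pair.

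The other inositol and phospholipid genes were mostly above 0 by smaller amounts. Of 29 kept genes on that list 1, INO1, was higher by the rule of size, against 0.46% of all ORFs, and their median was 0.17. Beyond counting error 17 were above 0 and 5 below, against 24% and 23.6% of all ORFs. ITR1, for the major inositol transporter, had 2397 CPM in the library labelled TIF4631 and 1581 in the control (0.60, interval 0.58 to 0.62). PSD1, for phosphatidylserine decarboxylase, had 265 against 185 CPM (0.52), OPI3, for the last methylation to phosphatidylcholine, 1318 against 930 (0.50), and OPI1, for the repressor of this regulon, 92.3 against 65.7 (0.49). The lowest by their interval were PIS1 for phosphatidylinositol synthase (-0.10), DGK1 for diacylglycerol kinase (-0.17), the minor inositol transporter ITR2 (-0.19) and ECT1 of the ethanolamine branch (-0.25). CATGTG, the core of the element bound by Ino2 and Ino4, was found on either strand in 342 of 4987 upstream windows (6.86%) and in 16 of the 29 on this list. The 16 genes with it had a median log2 ratio of 0.24 and 15 of them were above 0, while the 13 without it had a median of -0.03 and 6 were above 0. Over all windows the medians were 0.07 with the core and 0.00 without. The INO1 upstream region at chrX:136034-136233 (minus strand, R64, RefSeq, without the 100 bases next to the start codon) is shown for its 2 matches, in capitals, which begin 243 and 178 bases before the start codon and of which the second is on the other strand.
INO1: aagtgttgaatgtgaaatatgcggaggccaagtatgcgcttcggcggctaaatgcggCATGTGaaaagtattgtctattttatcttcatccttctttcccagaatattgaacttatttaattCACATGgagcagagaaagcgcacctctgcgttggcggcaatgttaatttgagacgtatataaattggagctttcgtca

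**Figure D3:**
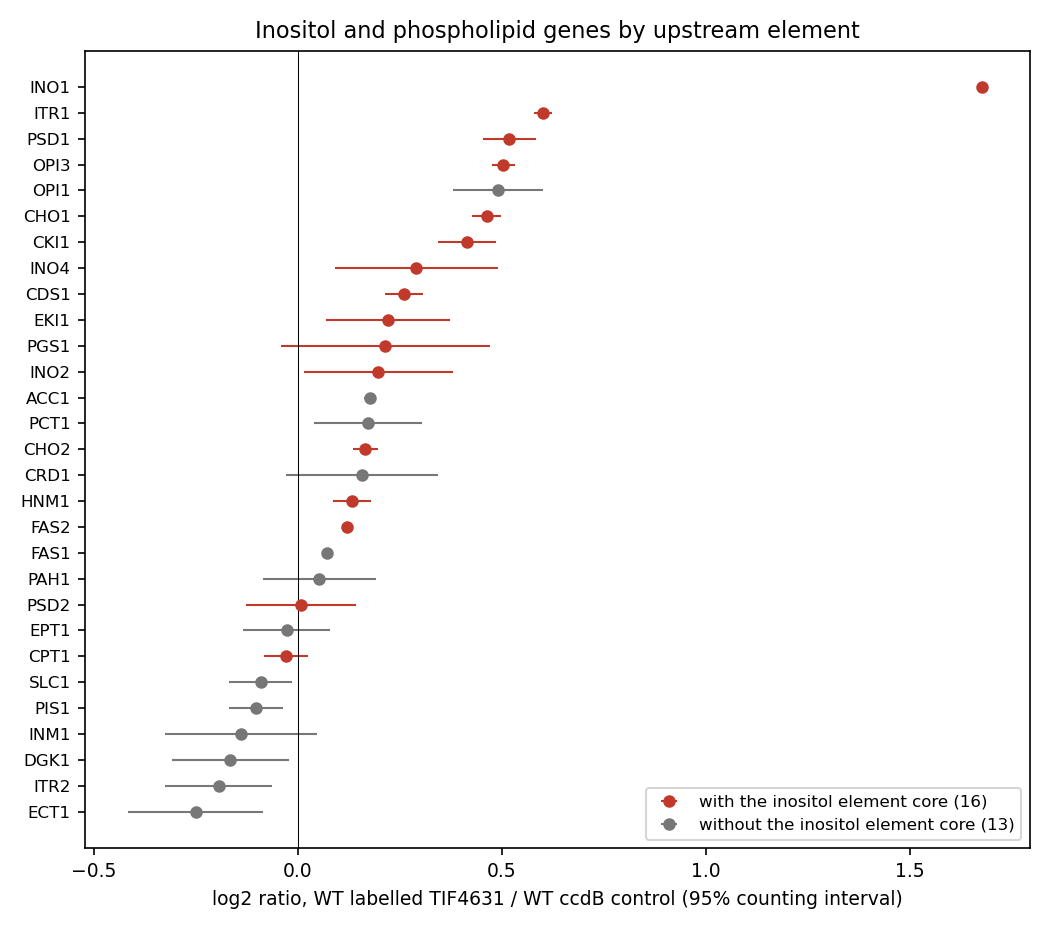
Log2 ratio of the library labelled TIF4631 over the wild-type ccdB control for the 29 kept inositol and phospholipid genes (horizontal axis), with 95% counting intervals as bars. Red genes hold CATGTG within 300 bases of the start codon (16 genes, median 0.24) and grey genes do not (13 genes, median -0.03); INO1 lies apart at 1.68.

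Among zinc genes, ZPS1 was far higher, ZRT1 and ZAP1 were higher by less and the rest were spread around 0. ZRT1, for the high-affinity zinc transporter, had 1562 CPM in the library labelled TIF4631 and 694 in the wild-type control, with 82.6 and 120 in the deletion pair, and a wild-type log2 ratio of 1.17 (1.14 to 1.20). Both wild-type libraries were above both deletion libraries for this gene. ZPS1, for a putative secreted protein known to respond to low zinc, had 84.9 CPM in the library labelled TIF4631 and 3.92, 1.74 and 2.46 CPM in the wild-type control, the deletion library with TIF4631 and its control. Its wild-type log2 ratio was 4.43 (4.09 to 4.81), and it passed the filter on low counts only through the library in which it was high, the other libraries having 126 reads in all. ZAP1, for the activator, fell just short of the rule at 99.3 against 52.0 CPM (0.93, 0.82 to 1.05), and ZRT3, for the vacuolar zinc exporter, had 0.46. Lowest were ZRT2, the low-affinity transporter gene (-0.22), MSC2, for a zinc transporter of the endoplasmic reticulum (-0.24), and IZH2 (-0.33). Of 17 kept zinc genes 2, ZRT1 and ZPS1, were higher by the rule of size, where 0.46% of all ORFs were. Since ZPS1 was kept only through the library in which it was high, the 2 cannot be read as an excess. Beyond counting error 6 were above 0 and 5 below, against 24% and 23.6% of all ORFs, and the median was 0.05. With scaling by total counts 5 were above and 6 below, and all 4997 ORFs had 930 above and 1525 below.

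Transporter genes led the 5 lower ORFs. PHO84, for the high-affinity phosphate transporter, had 23.0 CPM in the library labelled TIF4631 and 62.7 in the wild-type control, with 37.0 in the deletion library with TIF4631 and 85.3 in the deletion control. Its log2 ratio was -1.44 (-1.61 to -1.28) in the wild-type pair, and each library labelled TIF4631 was below the control of its strain. PHO84 overlaps the noncoding RNA gene YNCM0001W, and the sources used here do not say whether the authors' counting used strand. The phosphate transporter genes PHO89 (-0.70, -0.98 to -0.43), PHO90 (-0.43), PHO91 (-0.32) and PHO87 (-0.17) were also below 0 by less. PIC2, for a mitochondrial phosphate and copper carrier, was above 0 (1.01). The kinase inhibitor gene PHO81 had 0.23 and the regulator gene PHO2 0.20. Over 24 kept phosphate genes 1, PHO84, was lower by the rule of size, against 0.1% of all ORFs, and the median was 0.01. Beyond counting error 7 were above 0 and 5 below, shares near the 24% and 23.6% of all ORFs. With scaling by total counts 6 were above and 7 below, and all 4997 ORFs had 930 above and 1525 below. Pho4 sites, CACGTG or CACGTT on either strand, occurred in 12.7% of all upstream windows and in 15 of these 24. The 15 had a median log2 ratio of 0.04 and the 9 without a site -0.04, and 10 of the 15 were above 0, unlike PHO84. The PHO84 upstream region at chrXIII:25901-26100 (minus strand, R64, RefSeq, without the 100 bases next to the start codon) is shown for its match in capitals, which begins 262 bases before the start codon, reads CACGTT on the other strand and lies within the annotated YNCM0001W and YML122C.
PHO84: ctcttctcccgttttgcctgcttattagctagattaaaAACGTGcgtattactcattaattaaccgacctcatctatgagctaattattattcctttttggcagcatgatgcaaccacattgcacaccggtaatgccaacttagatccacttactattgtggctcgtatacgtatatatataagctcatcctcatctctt

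ATO3, for a plasma membrane protein linked to ammonium and acetate transport, had 17.3 CPM in the library labelled TIF4631 and 45.2 in the control, and 70.2 and 47.4 in the deletion pair, with a wild-type log2 ratio of -1.39 (-1.58 to -1.20). INA1, for a putative membrane protein, had 84.7 against 185 CPM in the wild-type pair (-1.13, -1.22 to -1.04) and 148 against 159 CPM in the deletion pair. MTC7, of unknown function, rested on 86 reads against 189 (-1.12) and passed the filter on low counts only through the control library. JJJ3, for a J-protein of diphthamide synthesis, had 62 reads against 126 (-1.01, -1.48 to -0.57). The ammonium permease genes were not below 0: MEP2, for the ammonium sensor and transporter, had 0.67 (0.45 to 0.89), MEP3 0.32 and MEP1 0.10. Targets of nitrogen catabolite repression had a median of 0.26 over 15 kept genes. Beyond counting error 10 were above 0 and 1 below, against 24% and 23.6% of all ORFs. With scaling by total counts 8 of these targets were above and 1 below, and all 4997 ORFs had 930 above and 1525 below. DUR3, for the urea transporter, led them at 0.85 (0.58 to 1.12), and GAP1, for the general amino acid permease, had 231 against 166 CPM (0.48).

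The remaining higher ORFs were of mixed function. YPR108W-A, a short ORF that did not match the RefSeq annotation used here and has no position here, had 489 CPM in the library labelled TIF4631 and 144 in the control, with 121 and 154 in the deletion pair (wild-type log2 ratio 1.76, 1.70 to 1.82). EGO4, for a small protein, had 299 against 122 CPM (2.45-fold), and YEL073C, of unknown function, 67.1 against 26.7 CPM (1.33). ADE17, for the enzyme of the last 2 steps of purine synthesis, had 148 against 63.0 CPM (1.24, 1.13 to 1.34), and in the deletion pair 115 against 38.2 CPM. ADH5, for an alcohol dehydrogenase, had 108 against 48.2 CPM (1.17), and HIS4, for 3 steps of histidine synthesis, 387 against 189 CPM (1.03, 0.97 to 1.10). CTT1, for cytosolic catalase, had 90.9 CPM in the library labelled TIF4631 and 43.4 in the control (1.07, 0.94 to 1.19), and 172 against 84.7 CPM in the deletion pair. COX26, for a subunit of cytochrome c oxidase, had 3507 reads against 1754 (1.01), and PIC2, for a mitochondrial phosphate and copper carrier, 2655 reads against 1322 (1.01). The others were YER053C-A (1.07), the homeodomain gene TOS8 (1.06), URA10 for a minor orotate phosphoribosyltransferase (1.05), UIP4 (834 reads against 418) and SDP1, for a stress-inducible phosphatase (1.35, from 82 reads against 32). SDP1 passed the filter on low counts only through the library in which it was high, since the other 3 libraries held 142 reads. Just inside the rule stood UIP4, COX26 and, on the low side, JJJ3, and just outside it DCS2 (137 against 68.5 CPM), SIP18 (0.97), MHO1 (0.96), GUT1 (0.94) and, on the low side, DBP2 (-0.90).

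Reserve carbohydrate and stress genes lay above 0 as groups, with few members past the rule of size. Of 21 kept trehalose and glycogen genes 19 were above 0 beyond counting error and none below, against 24% and 23.6% of all ORFs, with a median of 0.51 and none past the rule. GSY1, for glycogen synthase, had 489 CPM in the library labelled TIF4631 and 267 in the control (0.87, 0.82 to 0.92). GPH1, for glycogen phosphorylase, had 1978 against 1156 CPM (0.77), GLG1, for glycogenin, 35.4 against 20.7 (0.77) and PGM2, for phosphoglucomutase, 2967 against 1829 (0.70). In the deletion pair these 4 had 161 against 230.5, 1029 against 1182, 17.8 against 14.9 and 1458 against 1794 CPM. At the low end of the list PIG1 had 0.10 and PGM1, for the minor phosphoglucomutase, 0.02. Of 41 kept Msn2 and Msn4 targets 39 were above 0 beyond counting error and none below, with a median of 0.49. CTT1 and SDP1 were higher by the rule, against 0.46% of all ORFs, but SDP1 was kept only through the library labelled TIF4631. OM45, for a mitochondrial outer membrane protein, had 369 against 207 CPM (0.84). HSP12, for a small stress protein often used as a marker of this regulon, had 235 against 214 CPM (0.13), and SSA4, for an inducible Hsp70, 349 against 339 (0.04). The stress response element core, AGGGG on either strand, occurred in 34 of the 41 upstream windows and in 22.7% of all windows. The 34 had a median log2 ratio of 0.50 and the 7 without it 0.44, and over all ORFs the medians were 0.08 with the core and -0.02 without.

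Other protective groups were less uniform, set beside 24% of all ORFs above 0 beyond counting error and 23.6% below. With scaling by total counts all 4997 ORFs had 930 above and 1525 below. Antioxidant enzymes had 21 of 28 above 0 beyond counting error and 4 below (median 0.21), from CTT1 and OYE3, for an old yellow enzyme (0.90), to GRX4, for a glutaredoxin (-0.36), and CTA1, for peroxisomal catalase (-0.78). Hsf1-linked chaperones lay nearer the shares of all ORFs, with 9 of 24 above and 7 below, or 8 and 8 with scaling by total counts. Their median was 0.04. HSP30, HSP26 and HSP42, for stress-induced membrane and small heat shock proteins, had 0.72, 0.65 and 0.57, while SSA3 (-0.35), SSE1 (-0.27) and YDJ1 (-0.24), for an Hsp70, its exchange factor and an Hsp40, were below 0. Autophagy genes had 15 of 28 above 0 beyond counting error and none below (median 0.20), led by ATG41 (0.68). Vacuolar hydrolases and their inhibitors had 10 of 13 above and 1 below (median 0.21), among them PBI2 (0.45), PRC1 for carboxypeptidase Y (0.28) and PEP4 for proteinase A (0.19).

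Genes for making ribosomes lay below 0, and nearly all of them by similar small amounts. Of 125 kept ribosome biogenesis genes 121 were below 0 beyond counting error and none above, against 23.6% and 24% of all ORFs. The median was -0.35, and none was past the rule of size. DBP2, for an RNA helicase, had 148 CPM in the library labelled TIF4631 and 277 in the control (-0.90, -0.97 to -0.83), and in the deletion pair 313 against 249 CPM. NSR1, for yeast nucleolin, had 170 against 285 CPM (-0.75), HAS1, for a helicase, 124 against 180 (-0.54) and SRP40, for a nucleolar chaperone, 117 against 170 (-0.53). The highest member was FPR3, for a nucleolar proline isomerase, at 0.01. The PAC core, GATGAG on either strand, was found in 114 of these 125 upstream windows and in 19.3% of all windows. Those with it had a median of -0.35 and the 11 without it -0.26, and over all ORFs the medians were -0.10 with the core and 0.02 without.

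All 67 kept cytosolic ribosomal protein genes were below 0 beyond counting error, with a median of -0.25 and a range from -0.36 (RPL27A) to -0.10 (RPS21A). They ran closely together: the SD of their log2 ratios was 0.0619, against an SD of 0.279 over all ORFs. The robust SD was 0.185 over all ORFs and 0.171 over the 1000 ORFs of highest level. Both subunits had a median of -0.25. Together these 67 genes took 7.66% of reads in the library labelled TIF4631 and 9.32% in the control. The kept genes are 67 of 138 on the list, and the others are absent from the ORFs that the authors listed. Most ribosomal proteins are encoded by near-identical pairs, but the sources used here do not say why these genes are absent. Reads of the pairs that are listed may be shared between copies.

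**Figure D4:**
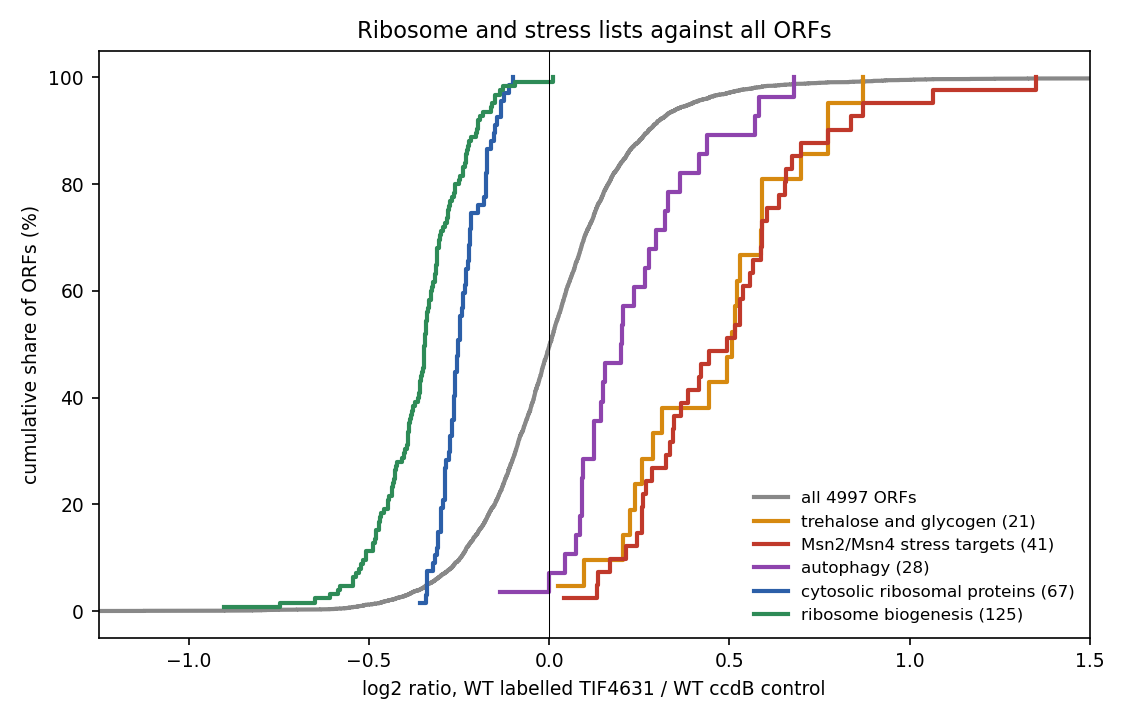
Cumulative share of ORFs in percent (vertical axis) by log2 ratio of the library labelled TIF4631 over the wild-type ccdB control (horizontal axis) for 4997 ORFs and 5 gene lists, with the number of kept members in brackets. Ribosome biogenesis (median -0.35) and ribosomal protein genes (-0.25) lie left of 0 and trehalose and glycogen (0.51), Msn2 and Msn4 targets (0.49) and autophagy genes (0.20) right of it, while most single ORFs stay within 1 in either direction.

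Other parts of the translation machinery were also mostly below 0. Subunits of RNA polymerases I and III had 16 of 20 below 0 beyond counting error and none above (median -0.27), from RPA12 (-0.45) and RPA135, the second-largest subunit of RNA polymerase I (331 against 442 CPM, -0.42), to RPC17 (0.10). Initiation factors had 24 of 30 below and 1 above (median -0.18). SUI3, for the beta subunit of eIF2, was lowest (-0.32, interval -0.38 to -0.25) and DBP1, for a helicase related to Ded1, was the one above (0.52, 0.34 to 0.71). YEF3, for the fungal elongation factor eEF3, had 6538 CPM in the library labelled TIF4631 and 8322 in the control (-0.35). It was the lowest of 13 elongation and termination genes (median -0.12, 7 below and none above). Only these 13 of the 19 genes on that list are among the authors' ORFs. Cytosolic tRNA synthetases had 20 of 22 below and none above (median -0.09), the lowest being MES1, for the methionine enzyme (-0.28). Mitochondrial ribosomal proteins were not among the groups that stood below 0. They had 14 of 70 below and 5 above, against 23.6% and 24% of all ORFs, with a median of -0.05. With scaling by total counts they had 22 below and 2 above, and all 4997 ORFs had 1525 below and 930 above.

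Amino acid and sulfur genes held a few large ratios within lists centred near 0. For comparison, 24% of all ORFs were above 0 beyond counting error and 23.6% below. With scaling by total counts all 4997 ORFs had 930 above and 1525 below. Of 51 kept Gcn4 targets 26 were above 0 beyond counting error and 13 below (median 0.06), but with scaling by total counts 19 were above and 19 below. Besides HIS4, ARG4 had 965 CPM in the library labelled TIF4631 and 514 in the control (0.91, 0.87 to 0.94) and ARG1 2115 against 1323 (0.68), both for late steps of arginine synthesis. In the deletion pair ARG4 had 639 against 479 CPM. At the other end ILV1, for threonine deaminase, had -0.25 and THR1, for homoserine kinase, -0.24. Sulfate and methionine genes had 12 of 35 above and 6 below (median 0.02), or 10 and 11 with scaling by total counts. SAM2, for S-adenosylmethionine synthetase, had 3844 against 2110 CPM (0.87, 0.85 to 0.88), and MET13 and MET6, for the methylenetetrahydrofolate reductase and the methionine synthase, had 0.64 and 0.44. The sulfate permease gene SUL1 had -0.46 and MMP1, for the S-methylmethionine permease, -0.31. Purine genes had 12 of 24 above and 9 below (median 0.02), or 10 and 10 with scaling by total counts, with ADE17 highest, then MTD1 (0.58), HPT1 (0.56) and ADE2 (0.52), and AAH1, for adenine deaminase (-0.80, -0.93 to -0.67), and BAS1, for the activator of the pathway (-0.59), lowest.

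Carbon metabolism differed less, and its counts stand beside 24% of all ORFs above 0 beyond counting error and 23.6% below. With scaling by total counts all 4997 ORFs had 930 above and 1525 below. The galactose regulon had 7 of 10 kept genes above 0 and 1 below (median 0.16), or 6 and 2 with scaling by total counts (median 0.13). GAL1 had 31079 CPM in the library labelled TIF4631 and 27659 in the control (0.17). GAL10, for the epimerase, had 0.24 and GAL7, for the transferase, 0.11. The regulator genes GAL80 and GAL4 had 0.06 and -0.18. Glycolysis and fermentation had 12 of 16 above and 2 below (median 0.12), or 9 and 4 with scaling by total counts (median 0.08). Only these 16 of the 23 genes on that list are among the authors' ORFs. Members ran from ADH5 and GLK1, for glucokinase (0.37), to HXK2, for hexokinase (-0.11). PGK1, for phosphoglycerate kinase, had 11884 against 9505 CPM (0.32). Hexose transporters and their regulators had 4 of 9 below and none above, led by HXT8 (-0.33). Only 10 of the 17 genes on that list are among the authors' ORFs. Nuclear genes of the respiratory chain and ATP synthase had 26 of 42 above and 6 below around a median of 0.07, from NDE1 (-0.15) to NDE2 (0.63), for the external NADH dehydrogenases, and 19 above and 10 below with scaling by total counts. The tricarboxylic acid cycle had 10 of 22 above and 5 below, or 8 and 9 with scaling by total counts, and a median of 0.01. With scaling by total counts the median of all ORFs was -0.04. The medians of the tricarboxylic acid cycle, purine, sulfur and phosphate lists then also turned below 0.

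**Figure D5:**
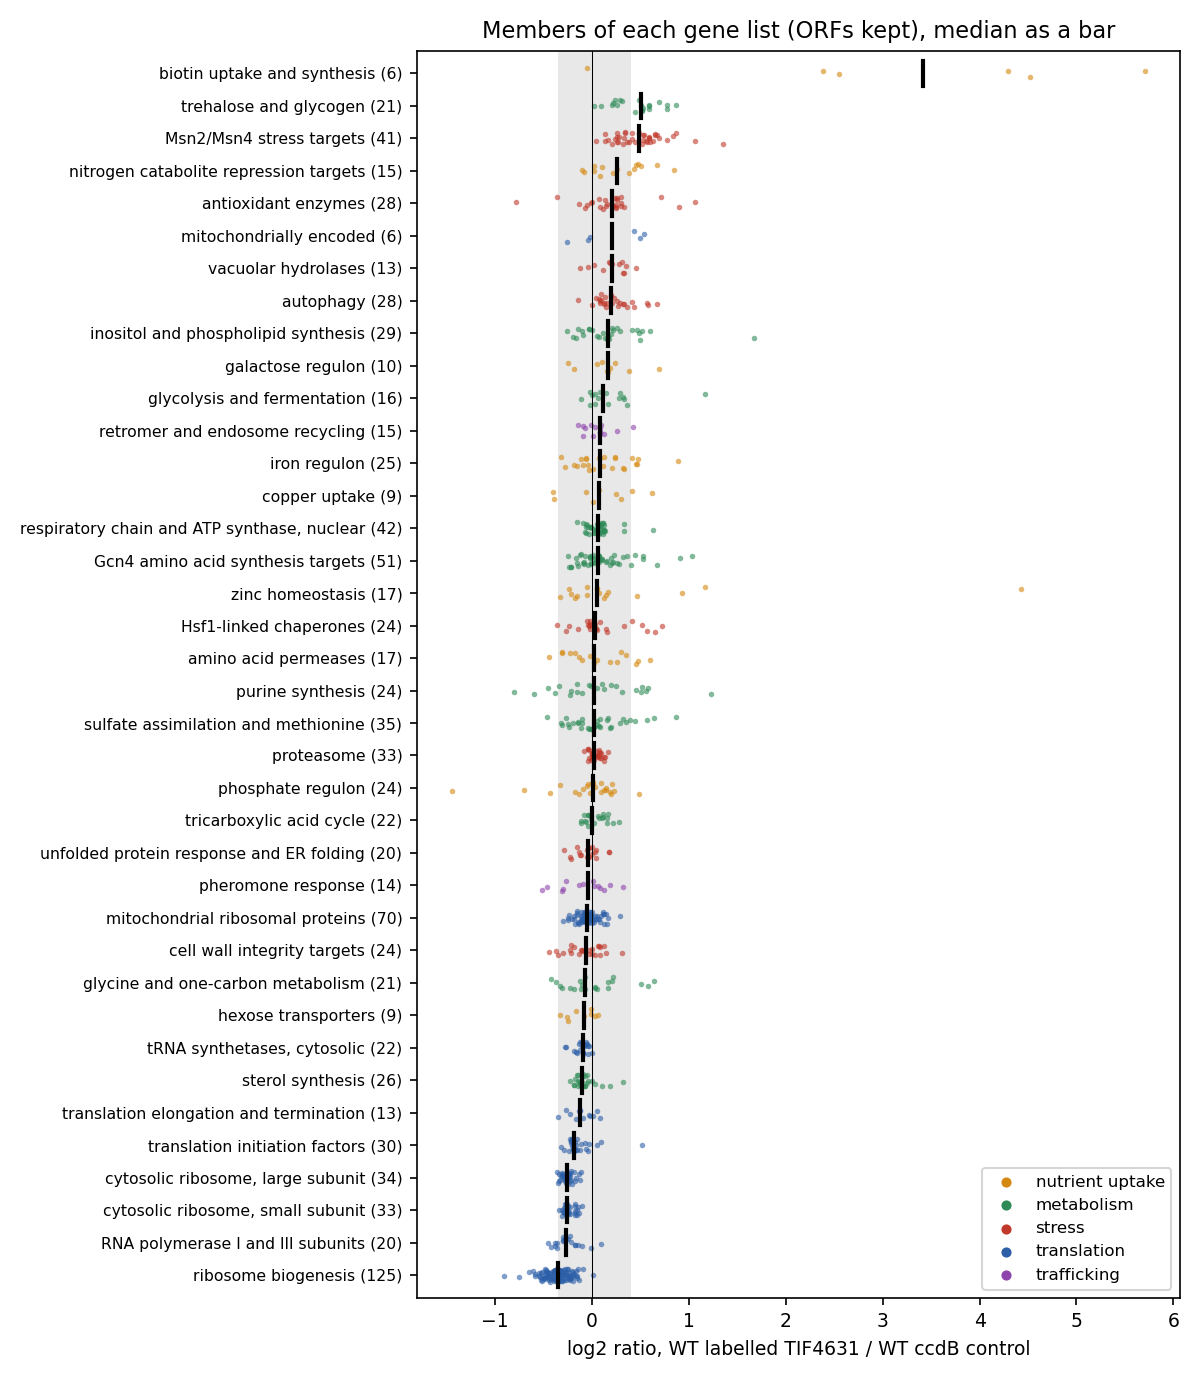
Log2 ratio of the library labelled TIF4631 over the wild-type ccdB control (horizontal axis) for the kept members of each gene list (rows, number kept in brackets), 1 point per gene, with the list median as a black bar and the 5th to 95th percentile of all 4997 ORFs (-0.34 to 0.39) as grey shading. The biotin list has the highest median (3.42) and ribosome biogenesis the lowest (-0.35).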

How the data were processed

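Footprints from 4 libraries, 1 per group, were analysed. Per the file headers, the first column the authors deposited is a raw read count for every ORF and the second is RPKM, with length and dataset size divided out. The submitters' processing notes name CASAVA, cutadapt 1.3, Bowtie2 and sacCer3. The sources used here do not give the counting tool, its use of strand or its treatment of reads with several matches. Of 5441 ORFs 5438 matched the RefSeq R64 annotation, and another 594 of its 6021 protein-coding genes were not among the ORFs listed.

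ORFs with at least 200 summed counts were kept, and the 444 below that were not analysed further. TMM factors (edgeR 4.0.16, R 4.3.3) over 4 libraries scaled CPM, and log2 ratios used 0.5 added counts with 95% conditional binomial (Clopper-Pearson) intervals. These intervals were run on simulated Poisson counts, which hold counting error alone, so that run cannot show how they cover the spread between libraries. DESeq2 1.42.0 size factors, other scalings, filters and added counts were alternatives. RPKM was used for ranks only. Scripts ran in Python 3.11.15 with scipy 1.17.1 and pandas 2.3.3. Named genes are TIF4631 and the markers, every ORF past the rule of size or within 0.1 of it, any member of lists of up to 16 genes and otherwise the 4 highest and 4 lowest by interval bound. A few others were named after their values were seen. The ORFs, lists and motifs were chosen with earlier results of these data known.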

Additional observations from a re-analysis of the deposited data

Results flagged for a closer look

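Some ORFs past the rule of size had log2 ratios of at least 1 in the opposite direction in the vps35 deletion pair. That pair shares no library with the wild-type pair. With 1 library per group these opposite ratios were not tested. The share of all ORFs past the rule in the deletion pair is not given here. For TIF4631 over control in the vps35 deletion strain, the biotin genes had log2 ratios of -2.66 (BIO3), -2.63 (BIO2), -2.41 (BIO5), -1.81 (BIO4) and -1.79 (VHT1), against 4.52, 2.55, 5.71, 4.29 and 2.39 in the wild-type pair. YJR154W had -2.05 there, against 4.21 in the wild-type pair. INO1 had -1.31, against 1.68 in the wild-type pair, and YEL073C had -1.24, against 1.33. TIF4631 itself was included as the targeted gene and had 3.84 in the vps35 deletion pair, against -0.17 in the wild-type pair. By contrast CTT1, ADE17 and PHO84 were past the rule in the same direction in both strains, with 1.02, 1.59 and -1.20 in the vps35 deletion pair. Short of the rule there but beyond counting error, HIS4 (0.53), PIC2 (0.43), YER053C-A (0.83), SDP1 (0.85), EGO4 (0.38) and INA1 (-0.10) also kept their direction. ADH5 (-0.82), COX26 (-0.83), ATO3 (0.57), ZRT1 (-0.54) and YPR108W-A (-0.34) had the opposite one.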

How the results depend on the processing

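The direction of TIF4631 and of the 23 higher and 5 lower ORFs held under each of the 4 other scalings and with 5 added counts. Filters on low counts were not run for single ORFs. These counts became 38 and 20 with no filter on low counts and 91 and 24 with a size of 1.5-fold, all including the original ORFs, and 3 remained lower with a summed count of at least 1000. Scaling by total counts gave 19 higher and 5 lower, a shift of -0.04 in every log2 ratio, which also took the medians of the amino acid permease and proteasome lists below 0. HIS4, COX26, PIC2, UIP4 and JJJ3 fell short of the rule under at least 1 alternative, since they lie at its edge. No paired analysis was possible because each group has 1 library and no test was made. Depth limits mostly the fifth of ORFs with the lowest levels. Nothing here separates a difference between conditions from one between single libraries.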

Other observations

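Gene lists not described above held few large ratios. Over all ORFs 24% were above 0 beyond counting error and 23.6% below. With scaling by total counts all 4997 ORFs had 930 above and 1525 below. Iron genes had 11 of 25 above 0 beyond counting error and 6 below (median 0.08), or 8 and 8 with scaling by total counts, led by FIT2, for a cell wall mannoprotein of siderophore retention (45.5 CPM in the library labelled TIF4631 and 24.6 in the control, 0.89), with ENB1, for the enterobactin transporter, at -0.32. Copper genes had 4 of 9 above and 1 below (median 0.08, but 0.25 with no filter on low counts and 0.24 with a summed count of at least 1000), led by CTR1, for the high-affinity copper transporter (0.62). Amino acid permeases had 7 of 17 above and 5 below (median 0.03), from DIP5, for the dicarboxylic amino acid permease (0.60), to TAT1, for an aromatic and branched-chain one (-0.44). Glycine and one-carbon genes had 8 of 21 above and 6 below (median -0.07), or 7 and 7 with scaling by total counts. GCV2, for a subunit of the glycine decarboxylase complex, had 22.5 CPM in the library labelled TIF4631 and 30.1 in the control (-0.42), and 348 against 50.6 CPM in the vps35 deletion pair.

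Sterol genes had 14 of 26 below 0 beyond counting error and 3 above (median -0.10), with ERG3, for a desaturase, lowest (-0.23). Cell wall integrity targets had 11 of 24 below and 3 above (median -0.06), among them CWP1, for a wall mannoprotein (-0.37). Of the unfolded protein response and folding list, 5 of 20 were below and 2 above (median -0.04), with SEC61, for the translocon, at -0.28 and the chaperone gene KAR2 at -0.22. Proteasome genes had 10 of 33 above and 1 below (median 0.02), but 4 above and 5 below with scaling by total counts. Pheromone response genes had 6 of 14 below and 3 above (median -0.04). AGA1, for an agglutinin anchor, had 65.0 against 92.6 CPM in the wild-type pair (-0.51) and 296 against 69.8 CPM in the vps35 deletion pair. Retromer and endosome genes had 3 of 15 above and 1 below (median 0.09), with SNX4, for a sorting nexin, highest (0.42). The 6 kept mitochondrially encoded ORFs had 3 above and 1 below, all at 23.2 CPM or less in both libraries, and AI1 and AI2 share exons with COX1.

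In reads rather than ratios, the largest gains after INO1 were in GAL10 (23795 CPM in the library labelled TIF4631 and 20201 in the control) and GAL1, and the largest losses in YEF3, then CCW12, for a cell wall mannoprotein (7242 against 8194 CPM), and RPL3 (3734 against 4428 CPM). These ORFs were chosen after their values were seen.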
